A study of Mus musculus with 20 samples.

Results

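Pyruvate stands at a branch point of liver metabolism, and the histone marks around 8 genes that direct its fate were followed across the fasted livers of 4 mouse genotypes. The genes were Pdk4, Pdk1 and Pdk2 (pyruvate dehydrogenase kinases), Pdp2 (the opposing phosphatase), Mpc1 and Mpc2 (the mitochondrial pyruvate carrier), Pcx (pyruvate carboxylase) and Ldha (lactate dehydrogenase A). They are 8 of 21900 protein-coding genes in the RefSeq table of assembly GRCm38.p6, which is mm10. A consensus interval, meaning a region of the authors' consensus list for a mark, belonged to a gene when its midpoint lay inside the gene body or within 10 kb of it. The rule found 258 of 215358 intervals: 72 of 65776 for H3K27ac, 117 of 103014 for H3K4me1 and 69 of 46568 for H3K9ac. The value of an interval in a library was the highest fold enrichment over input among that library's overlapping peaks, and an interval with no overlapping peak had no call.

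Livers came from male C57BL/6 mice aged 9 weeks that were kept on chow and then fasted for 24 hours. Mice were wild type (WT), lacked Cpt2 in liver (Cpt2 KO), lacked Ppara (Ppara KO) or lacked both as Cpt2 L-/-;Ppara -/- double knockouts (DKO). Cpt2 encodes a carnitine palmitoyltransferase of the inner mitochondrial membrane that long-chain fatty acids need for oxidation, and Ppara encodes a fatty acid receptor that switches on fasting genes. How Cpt2 was deleted in liver is not given in the sources used here. H3K27ac, a mark of active promoters and enhancers, and H3K4me1, a mark of enhancers, were measured in 2 livers of each genotype; H3K9ac, a mark of active promoters, was measured in 1 WT and 1 Cpt2 KO liver. Per the peak names, the same animals gave both replicated marks, so the marks are not independent of each other. The animal numbers in those names fall in one range for WT and Cpt2 KO and in another for Ppara KO and DKO, so loss of Ppara and any other difference between these sets of animals cannot be told apart.

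As background, pyruvate made from glucose, lactate or alanine enters mitochondria through the carrier formed by Mpc1 and Mpc2. There the pyruvate dehydrogenase complex turns it into acetyl-CoA, or pyruvate carboxylase turns it into oxaloacetate for glucose synthesis. Kinases of the Pdk family switch the complex off by phosphorylation and Pdp2 switches it on again; Pdk4 is a well-known fasting gene and Ppara target. Ldha interconverts pyruvate and lactate.

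The libraries held 44454 to 48929 H3K27ac peaks and 61189 to 72151 H3K4me1 peaks, and depth in reads is unknown. In H3K4me1, the replicates of Cpt2 KO and of Ppara KO shared fewer bases (Jaccard index 0.390 and 0.470) than those of WT and DKO (0.654 and 0.622), and Cpt2 KO replicate 1 and Ppara KO replicate 2 covered 41.4 and 42.7 Mb against 53.5 and 53.3 Mb in their partners. H3K27ac replicates had an index of 0.713 to 0.726. Peak calls at the targeted genes did not check the genotypes: at Cpt2, 1 of 5 H3K27ac and 0 of 7 H3K4me1 intervals were called in the 4 Cpt2-intact livers alone and 0 in the Cpt2-null livers alone (over all H3K27ac intervals 0.826% and 1.95%). At Ppara, 1 of 26 H3K27ac intervals was called in the Ppara-intact livers alone and 1 in the Ppara-null livers alone (over all intervals 0.725% and 0.632%), and 2 and 0 of 40 in H3K4me1 (over all intervals 0.604% and 0.385%). H3K27ac was called at 6 of 6 hepatocyte markers in all 8 libraries, and also at 4 of 4 endothelial, 1 of 5 Kupffer cell and 1 of 4 stellate markers. In whole liver, a change in the share of a cell type and a change of the mark within cells cannot be told apart.

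At each of the 8 genes, an H3K27ac consensus interval over an annotated start had an overlapping peak in all 8 libraries; the second start of Pdk1 lay outside its interval. The RefSeq sequences of the 250 bases before 4 of these starts are shown because the intervals over or beside them carry the results below. They lie on GRCm38.p6 at chr6:5496279-5496528 (minus strand, Pdk4), chr2:71872974-71873223 (plus strand, first start of Pdk1), chr19:4594069-4594318 (plus strand, second start of Pcx) and chr7:46845554-46845803 (plus strand, first start of Ldha). Each is written 5′ to 3′ with the last base next to the start, and capitals mark matches to CACGTG, the E-box core.
Pdk4: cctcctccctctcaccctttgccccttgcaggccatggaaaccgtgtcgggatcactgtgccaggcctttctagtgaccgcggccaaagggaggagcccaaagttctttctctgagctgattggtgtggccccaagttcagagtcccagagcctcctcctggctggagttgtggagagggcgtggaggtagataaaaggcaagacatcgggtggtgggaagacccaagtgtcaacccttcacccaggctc
Pdk1: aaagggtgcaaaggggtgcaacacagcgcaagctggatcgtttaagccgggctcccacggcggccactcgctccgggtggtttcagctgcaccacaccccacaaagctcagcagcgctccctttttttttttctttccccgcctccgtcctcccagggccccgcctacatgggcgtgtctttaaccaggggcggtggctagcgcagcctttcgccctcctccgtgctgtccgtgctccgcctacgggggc
Pcx: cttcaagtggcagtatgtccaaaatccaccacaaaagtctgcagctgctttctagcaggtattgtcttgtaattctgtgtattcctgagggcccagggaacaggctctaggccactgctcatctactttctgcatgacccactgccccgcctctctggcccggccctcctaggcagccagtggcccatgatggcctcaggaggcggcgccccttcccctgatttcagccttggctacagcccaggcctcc
Ldha: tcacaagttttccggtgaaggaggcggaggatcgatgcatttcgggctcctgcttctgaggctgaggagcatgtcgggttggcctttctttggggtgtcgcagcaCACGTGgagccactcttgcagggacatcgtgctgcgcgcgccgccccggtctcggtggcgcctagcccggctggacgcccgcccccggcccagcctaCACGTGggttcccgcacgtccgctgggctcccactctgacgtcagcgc

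The 4 sequences differ in base composition. Over the 300 bases from 250 before to 50 after the start, Pdk1 held 25 CpG and Ldha 30, above the upper quartile of 20 over all promoters. Pdk4 held 12 and the second start of Pcx held 5, where the median over all promoters was 7. These starts of Pdk1 and Ldha therefore sit in CpG-rich sequence, and the second start of Pcx does not.

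Both strands of the 300 bases were searched for 4 motifs. AGGTCA, the core hexamer of nuclear receptor sites, was found at the second start of Mpc1, at -244 bases, and at the second start of Pcx, at 39 bases; 16.2% of 32544 distinct RefSeq promoters hold it. Its direct repeat after 1 base, the form bound by PPAR with RXR, was found at no member, neither exactly (0.0399% of promoters) nor with up to 2 mismatches (3.87%). GTAAACA, a forkhead core, was found at no member (3.66% of promoters). CACGTG occurred at Pdk2, Pdp2, the first start of Pcx and, at 2 places, Ldha, against 7.17% of promoters. These matches describe letters in a short window and say nothing of binding.

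At Pdk4, the kinase gene best known from fasting, the interval over the start (chromosome 6, 5495782 to 5499873) carried H3K27ac in every liver, and no genotype difference there passed the test. Folds there were 11.9 and 21.5 (WT), 23.6 and 20 (Cpt2 KO), 11 and 13.2 (Ppara KO) and 18.8 and 17.7 (DKO). The Ppara KO livers were low, but WT replicate 1 lay between them, so the groups overlapped. The log2 difference between Ppara-null (Ppara KO and DKO) and Ppara-intact (WT and Cpt2 KO) livers was -0.36 (SE 0.17, limma adjusted p = 0.223). Between Cpt2-null (Cpt2 KO and DKO) and Cpt2-intact (WT and Ppara KO) livers it was 0.25 (SE 0.17, limma adjusted p = 0.336). The Ppara difference hung on the WT livers: it was -0.53 without WT replicate 1 and -0.21 without WT replicate 2.

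Next to the start, calls at Pdk4 differed by genotype. An H3K27ac interval inside the gene, 1538 bases after the start (5493846 to 5495634), had no call in either WT liver. Its folds were 12.6 and 10.2 (Cpt2 KO), 6.62 and 5.1 (Ppara KO) and 6.4 and 5.53 (DKO). Both Cpt2 KO livers thus lay above the 4 Ppara-null livers, and WT alone lacked an H3K27ac peak. H3K9ac over nearly the same bases (5493808 to 5495650) was called in the WT and in the Cpt2 KO liver. The share of all H3K27ac intervals that WT alone lacked was not taken. Upstream, an H3K27ac interval with its midpoint at -4140 bases from the start (5500138 to 5500699) was called in Cpt2 KO alone, with folds of 8.17 and 6.16. An H3K4me1 interval overlapping it (5500405 to 5500720) was also called in Cpt2 KO alone, with folds of 6.5 and 6.33. These 3 H3K27ac and H3K4me1 intervals were singled out after their values were seen. Intervals called in both Cpt2 KO livers and in none of the other 6 made up 2 of 72 H3K27ac intervals (at Pdk4 and Pdk1, 2.78%; over all intervals 1.83%) and 1 of 117 H3K4me1 intervals (0.855%; over all intervals 0.621%), close to the background in number. Over the whole genome, 106 of the 1202 such H3K27ac intervals (8.82%) overlapped an H3K4me1 interval with the same calls.

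H3K4me1 at Pdk4 was called by Ppara state in places. The strongest interval, at -2272 bases from the start (5496774 to 5500326), had folds of 10.2 and 7.43 (WT), 8.99 and 11.3 (Cpt2 KO), 7.42 and 6.83 (Ppara KO) and 6.35 and 5.56 (DKO). The highest Ppara-null value (7.42) lay only just below the lowest Ppara-intact value (7.43), and the log2 difference of -0.53 (SE 0.20) had a limma adjusted p of 0.255. At the far end of the gene, an H3K4me1 interval 11052 bases after the start (5484740 to 5485712) was called in the Ppara-null livers alone, with folds of 3.78 and 4.89 (Ppara KO) and 4.62 and 5.63 (DKO). Another beyond the gene end (5474457 to 5474836) had the same calls, with folds from 4.14 to 7.09. These were 2 of 117 H3K4me1 intervals (over all intervals 0.385%), both with low folds, and neither was left among peaks with a −log10 q of at least 10.

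**Figure D1:**
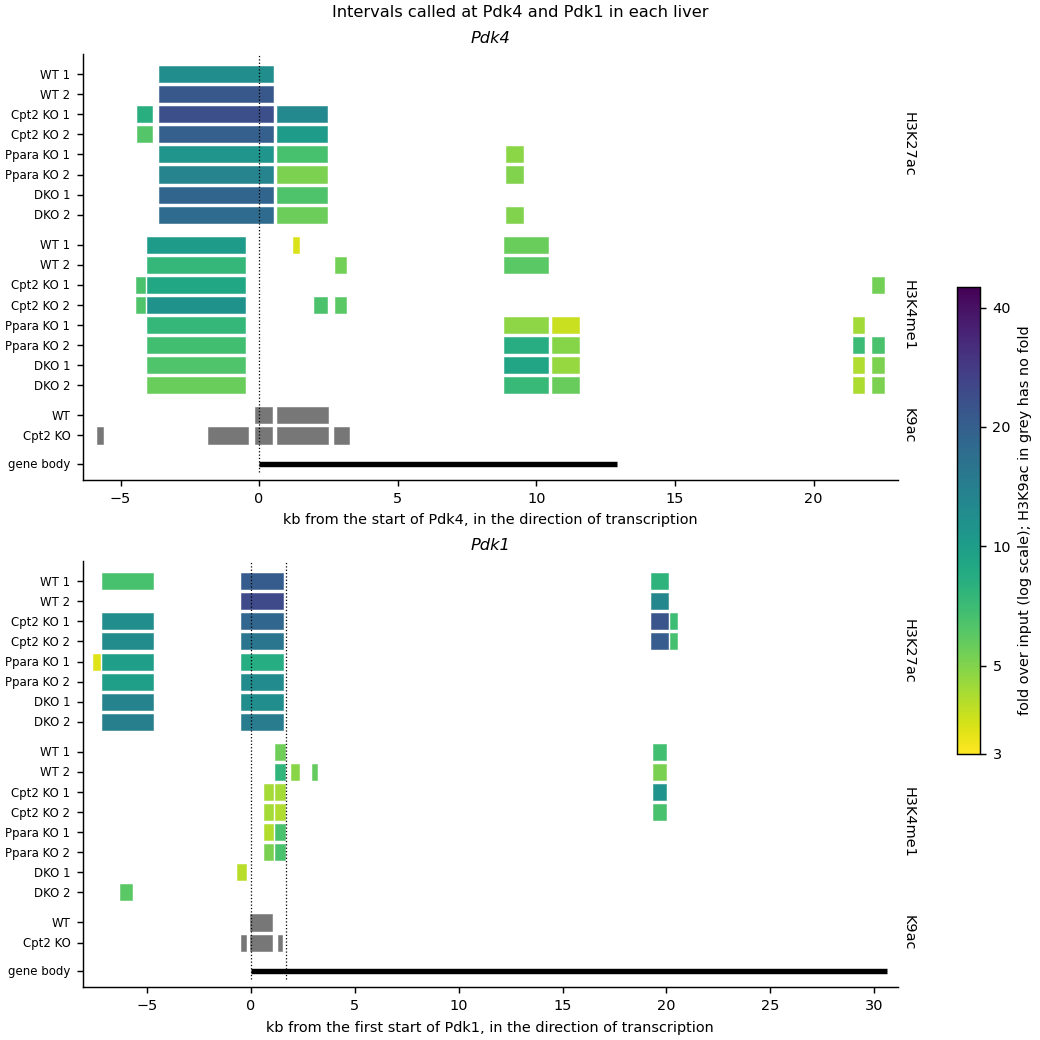
Intervals at Pdk4 and Pdk1 by distance from the start in kb, with 1 row per library, coloured by fold over input on a log scale; each block is drawn over the whole consensus interval, H3K9ac (grey) has no fold, and dotted lines are annotated starts. At Pdk1 the block about 20 kb after the first start is present in the 4 Ppara-intact livers and absent from the 4 Ppara-null livers in both H3K27ac and H3K4me1.

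The Ppara difference that passed the test was at Pdk1, which encodes another of the kinases. Over its start (chromosome 2, 71872746 to 71874748), H3K27ac folds were 20.7 and 24.4 (WT) and 18.6 and 15.6 (Cpt2 KO). They were 8.37 and 12.3 (Ppara KO) and 12 and 14.6 (DKO). Every Ppara-intact liver was above every Ppara-null liver. H3K27ac fell by 0.79 on the log2 scale in Ppara-null livers (SE 0.16, limma adjusted p = 0.00988). The call held in all 8 fits that left out 1 library and in 8 other settings, with adjusted p from 0.00831 to 0.0441. For Cpt2 the log2 difference was -0.27 (SE 0.16, limma adjusted p = 0.258).

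Inside Pdk1, 17983 bases after its second start, an H3K27ac interval (71892473 to 71893301) was called in the 4 Ppara-intact livers and in none of the Ppara-null livers. Its folds were 7.82 and 12.8 (WT) and 22 and 20.4 (Cpt2 KO), so both Cpt2 KO livers were above both WT livers (mean ± SD 21.2 ± 1.12 against 10.3 ± 3.53, n = 2 each, not tested). An H3K4me1 interval in the same place (71892580 to 71893213) had folds of 6.82 and 5.18 (WT) and 11.2 and 6.62 (Cpt2 KO), again with no call in the Ppara-null livers. Of all 477 H3K27ac intervals called in the Ppara-intact livers alone, 89 (18.7%) overlapped an H3K4me1 interval with the same calls. An adjoining H3K27ac interval (71893385 to 71893718) was called in Cpt2 KO alone, with folds of 7 and 6.67. Upstream, at -5974 bases (71866018 to 71868481), H3K27ac was 6.6 and no call (WT), 11.9 and 12.2 (Cpt2 KO), 9.93 and 9.9 (Ppara KO) and 13.4 and 14.2 (DKO), so WT was lowest and DKO highest in an interval singled out after its values were seen.

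At Pdk2, another kinase gene, no difference passed. H3K27ac over its start (chromosome 11, 95037832 to 95042308) had folds of 12.4 and 12.7 (WT), 13.9 and 12.9 (Cpt2 KO), 13 and 15.2 (Ppara KO) and 16.3 and 14 (DKO). The highest value was 1.31 times the lowest, the narrowest range of the 9 intervals over starts. Log2 differences were 0.14 for Ppara (SE 0.16, limma adjusted p = 0.661) and -0.17 for Cpt2 (SE 0.16, limma adjusted p = 0.514). The Cpt2 value is below 0 although the raw folds of the Cpt2-null livers are not lower, because each library was centred on its median fold. The strongest H3K4me1 interval of Pdk2, 1604 bases after the start (95037829 to 95040714), had folds of 8 and 10.9 (WT), 11.7 and 11.3 (Cpt2 KO), 13.3 and 11.5 (Ppara KO) and 13.5 and 11.7 (DKO), with WT lowest.

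For Pdp2, the phosphatase that reactivates the complex, no difference passed over the start, and calls inside the gene varied by genotype. Over the start (chromosome 8, 104590671 to 104593062), H3K27ac folds were 16 and 23.9 (WT), 21 and 18.4 (Cpt2 KO), 14 and 21.2 (Ppara KO) and 18.5 and 21.9 (DKO). The groups overlapped, and the log2 difference for Ppara was -0.10 (SE 0.15, limma adjusted p = 0.736). Further into the gene, 6751 bases after the start (104597662 to 104598784), H3K27ac was called in the Ppara-intact livers alone. Its folds were 9.03 and 7.75 (WT) and 3.57 and 5.06 (Cpt2 KO). An H3K4me1 interval covering these bases (104595784 to 104598911) had a peak in every library. Its Ppara difference of -0.50 (log2, SE 0.20) did not pass (limma adjusted p = 0.288). H3K9ac had 6 intervals at Pdp2 in the WT liver and 2 of them in the Cpt2 KO liver (over all H3K9ac intervals 20.8% in WT alone). The 4 in WT alone were short (198 to 284 bases) and lay side by side from 104597221 to 104598493. The strongest H3K4me1 interval (104593172 to 104595599) had folds of 16.1 and 13.2 (WT), 8.57 and 12.4 (Cpt2 KO), 6.43 and no call (Ppara KO) and no call and 4.5 (DKO). All called Ppara-null values were below the Ppara-intact values there, and the interval was not tested because 2 libraries had no call. An H3K27ac interval within it (104593194 to 104595081), singled out after its values were seen, was called at 7.19 and 8.8 (WT) and in 1 Cpt2 KO liver at 6.51, and in no Ppara-null liver.

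The carrier genes Mpc1 and Mpc2 had strong marks over their starts in every liver. At Mpc1 (chromosome 17, 8281994 to 8286197), folds were 12.3 and 19.8 (WT), 14.7 and 17.7 (Cpt2 KO), 14.2 and 13.5 (Ppara KO) and 21.7 and 17.7 (DKO), with log2 differences of 0.02 for Ppara and 0.01 for Cpt2 (SE 0.18 each, limma adjusted p = 0.962 and 0.986). At Mpc2 (chromosome 1, 165459177 to 165463575), they were 18.4 and 35.2 (WT), 33.8 and 32.9 (Cpt2 KO), 22 and 23.9 (Ppara KO) and 36.3 and 44.7 (DKO). Its median over the 8 libraries, 33.3, was the highest of the 9 intervals over starts, although in WT replicate 1 Pdk1 and Ldha were higher. WT replicate 2 lay among the Cpt2-null values, and the Cpt2 difference was 0.34 (SE 0.15, limma adjusted p = 0.139). The strongest H3K4me1 interval of Mpc2, 8076 bases after the start (165467903 to 165470769), ranged from 7.74 in a Cpt2 KO liver to 13.2 in a Ppara KO liver. That of Mpc1, at -6360 bases (8275434 to 8279419), ranged from 7.5 in a DKO liver to 14.4 in a Cpt2 KO liver.

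Just past the end of Mpc1, H3K27ac folds fell into separate ranges by Ppara state. The interval at 8297799 to 8300470 had folds of 11.8 and 12.6 (WT), 14.8 and 15.3 (Cpt2 KO), 5.43 and 4.67 (Ppara KO) and no call and 5.5 (DKO). Every Ppara-intact value was over 2 times every called Ppara-null value. It was singled out after its values were seen, and it was not tested because of the missing call. H3K4me1 over nearly the same bases (8297615 to 8300913) had a peak in every library, between folds of 7.31 and 15.3.

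**Figure D2:**
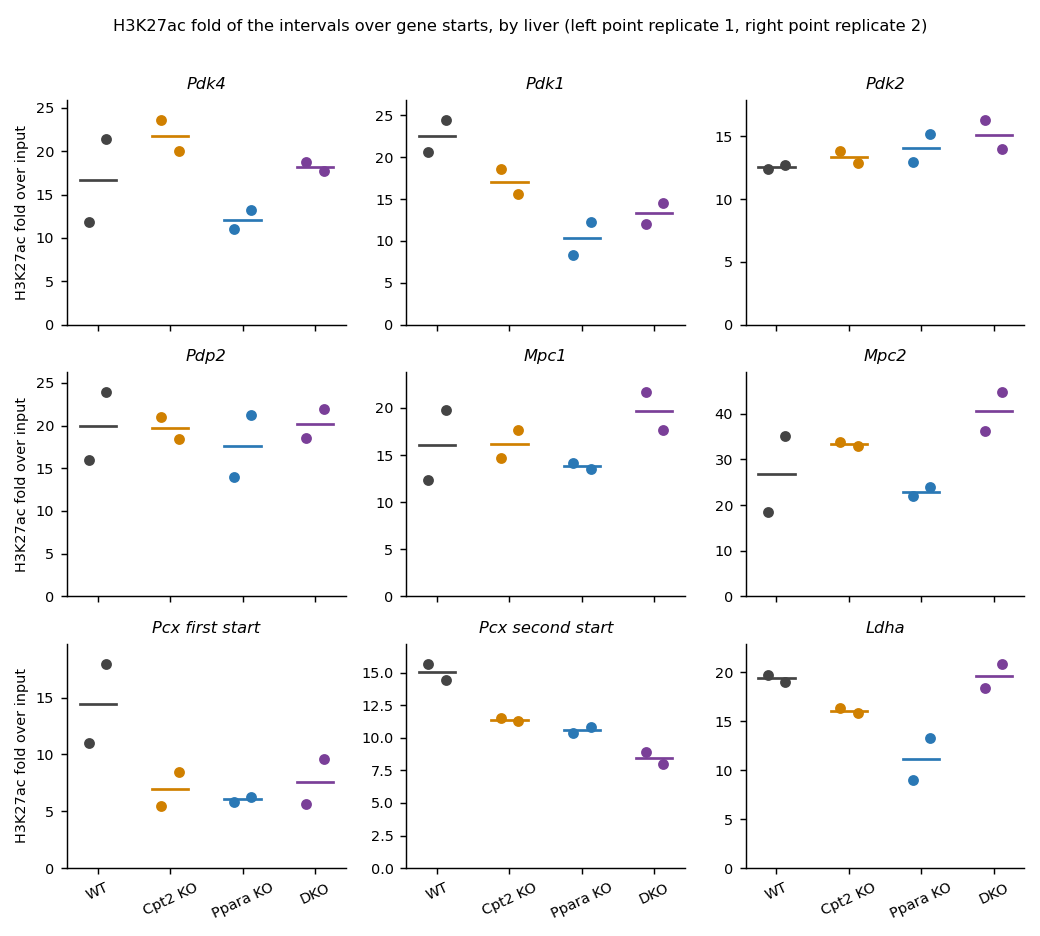
H3K27ac fold over input (vertical axis, from 0) of the 9 intervals over starts of the 8 genes, with 1 point per liver and a line at the mean of the 2 livers of a genotype. At Pdk1 all 4 Ppara-intact points lie above all 4 Ppara-null points, and the WT pair is spread wide at Pdk4 and Mpc2.

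The spread between replicates limits these comparisons. WT replicate 1 was below WT replicate 2 at 7 of the 9 start intervals. The ratio of the higher to the lower WT liver reached 1.91 at Mpc2 and 1.81 at Pdk4. In Cpt2 KO the same ratio was 1.03 at Mpc2 and 1.18 at Pdk4.

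Pcx, which commits pyruvate to oxaloacetate, held 33 of the 72 H3K27ac intervals and most of the Cpt2 differences. Its body spans 4510472 to 4621752 on chromosome 19, with a second annotated start at 4594319. An interval 10802 bases after the first start (4520086 to 4522463) had folds of 7.4 and 8.11 (WT) and 33.2 and 22.3 (Cpt2 KO). In Ppara KO the folds were 12.8 and 18.5, and in DKO 15.2 and 18. The Cpt2 KO pair was above the other 6 libraries and the WT pair below them. The Cpt2 difference, averaged over both Ppara states, was 0.69 on the log2 scale (SE 0.17, limma adjusted p = 0.0199), a call lost in 3 of 8 fits without 1 library. On the same centred scale, Cpt2 KO minus WT was 1.59 and DKO minus Ppara KO was -0.20. The interaction of -1.79 (SE 0.33) did not pass (limma adjusted p = 0.0774), so a difference between the Ppara states was not shown. H3K4me1 over the same place (4519993 to 4522414) ranged from 6.5 to 19 with both extremes in Cpt2 KO.

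Over the second start of Pcx (4593450 to 4603165), the H3K27ac folds were 15.7 and 14.4 (WT), 11.5 and 11.3 (Cpt2 KO), 10.3 and 10.8 (Ppara KO) and 8.88 and 8 (DKO). WT was highest and DKO lowest, with close replicates. The Cpt2-intact folds (10.3 to 15.7) overlapped the Cpt2-null folds (8 to 11.5). By Ppara state they did not overlap (11.3 to 15.7 in Ppara-intact and 8 to 10.8 in Ppara-null livers). Averaged over both Ppara states, the mark fell by 0.63 in Cpt2-null livers (SE 0.17, limma adjusted p = 0.033), with -0.62 for Cpt2 KO minus WT and -0.64 for DKO minus Ppara KO, and the Ppara difference of -0.50 did not pass (SE 0.17, limma adjusted p = 0.0994). Over the first start (4510452 to 4511946), folds were 11 and 17.9 (WT) and from 5.45 to 9.61 in the 6 other livers. Both WT values were above all others, but neither the Cpt2 difference (-0.65, SE 0.23, limma adjusted p = 0.0744) nor the Ppara difference (-0.58, SE 0.23, limma adjusted p = 0.139) passed. Between the starts, at 4555781 to 4560878, folds were 30.6 and 15 (WT), 13.7 and 19.4 (Cpt2 KO), 15.3 and 10.6 (Ppara KO) and 10.2 and 8.67 (DKO). WT replicate 1 was highest in this interval, which was singled out after its values were seen, and its Ppara value of -0.80 (log2, SE 0.26) did not pass (limma adjusted p = 0.081).

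Between the starts of Pcx, 2 further intervals had a lower Cpt2-null average. At 4544445 to 4547331, folds were 6.77 and 12.7 (WT), 7.77 and 4.92 (Cpt2 KO), 10.4 and 10.9 (Ppara KO) and 8.49 and 7.96 (DKO), with a limma log2 value for Cpt2 of -0.75 (SE 0.21, adjusted p = 0.0367). At 4575768 to 4580024, they were 11 and 7.75 (WT), 4.44 and 3.88 (Cpt2 KO), 6.33 and 8.5 (Ppara KO) and 7.14 and 10.4 (DKO), with -0.73 for Cpt2 (log2, SE 0.21, limma adjusted p = 0.0374). In the first of these the groups overlapped because of WT replicate 1, and in the second because of the DKO livers, of which replicate 2 was above both Ppara KO livers. On the centred log2 scale, Cpt2 KO minus WT was -0.81 and DKO minus Ppara KO -0.68 in the first, against -1.38 and -0.08 in the second. Of the calls at Pcx, that over the second start was lost in 6 of 8 fits without 1 library and those of the 2 further intervals in 7 of 8 each, and all 3 were lost without centring. Called in the Ppara-intact livers alone were the intervals at 4535817 to 4536741 (WT 8.42 and 7.31, Cpt2 KO 6.2 and 4.8) and at 4621033 to 4622522 (WT 8.58 and 8.82, Cpt2 KO 4.45 and 4.83). In the Cpt2-intact livers alone, H3K4me1 was called at 4511512 to 4511873 (folds of 4.57 to 5.4) and at 4553932 to 4554756 (folds of 4.71 to 6.96). These were 2 of 117 H3K4me1 intervals (over all intervals 0.143%).

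**Figure D3:**
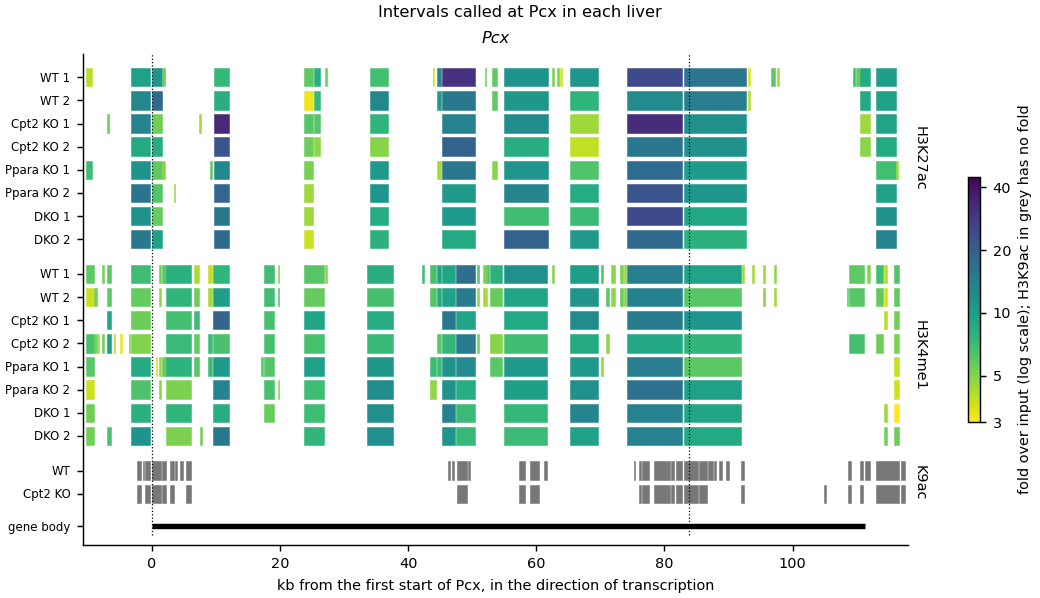
Intervals at Pcx by distance from its first start in kb, 1 row per library, coloured by fold on a log scale as in the maps of Pdk4 and Pdk1. The block near 11 kb is darkest in the Cpt2 KO livers (33.2 and 22.3), and WT replicate 1 has the most H3K27ac blocks (28).

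The number of calls at Pcx also varied by library. H3K27ac was called at 28 and 16 of its 33 intervals in WT, 15 and 13 (Cpt2 KO), 17 and 12 (Ppara KO) and 11 and 11 (DKO). Of the 33, 11 were called in all 8 libraries and 18 in only 1 or 2. WT replicate 1 had the most calls of any library. Over the genome, its H3K27ac peaks covered 47.8 Mb, and those of the DKO livers 42 and 44.9 Mb, although DKO had the most peaks (48929 and 48124). The share of all H3K27ac intervals called in each library was not taken, so these counts are not read as particular to Pcx. In H3K9ac, 35 of 36 intervals at Pcx were called in the WT liver and 23 in the Cpt2 KO liver, where 76.1% and 79.2% of all H3K9ac intervals were called.

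At Ldha, H3K27ac upstream of the gene was lower in Cpt2 KO. The interval at -7224 bases from the first start (chromosome 7, 46835102 to 46842059) had folds of 23.8 and 26.2 (WT), 17.4 and 11.9 (Cpt2 KO), 24.3 and 21.4 (Ppara KO) and 25.3 and 28.8 (DKO). The Cpt2 KO livers were the lowest, and 1 DKO liver lay within and 1 above the WT values. Averaged over both Ppara states, the Cpt2 difference was -0.54 on the centred log2 scale (SE 0.14, limma adjusted p = 0.0277). It was -1.02 for Cpt2 KO minus WT and -0.07 for DKO minus Ppara KO, and the interaction of 0.95 (SE 0.28) did not pass (limma adjusted p = 0.163). The Cpt2 call was lost in 4 of 8 fits without 1 library and without centring. Over the start (46844744 to 46847497), folds were 19.7 and 19 (WT), 16.3 and 15.8 (Cpt2 KO), 9 and 13.3 (Ppara KO) and 18.4 and 20.8 (DKO). No difference passed there: -0.30 for Ppara (SE 0.16, limma adjusted p = 0.273) and 0.02 for Cpt2 (SE 0.16, limma adjusted p = 0.956).

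Between these intervals, 2 weaker H3K27ac intervals of Ldha were called in the Cpt2-intact livers alone. At 46842429 to 46843342 the folds were 5.78 and 4.78 (WT) and 4.9 and 3.3 (Ppara KO). At 46843542 to 46844569 they were 6 and 8.37 (WT) and 5.4 and 4.96 (Ppara KO). H3K9ac peaks overlapped both places in the WT and in the Cpt2 KO liver. These were 2 of 72 H3K27ac intervals (over all intervals 0.826%), and 0 of 72 were called in the Cpt2-null livers alone (over all intervals 1.95%).

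**Figure D4:**
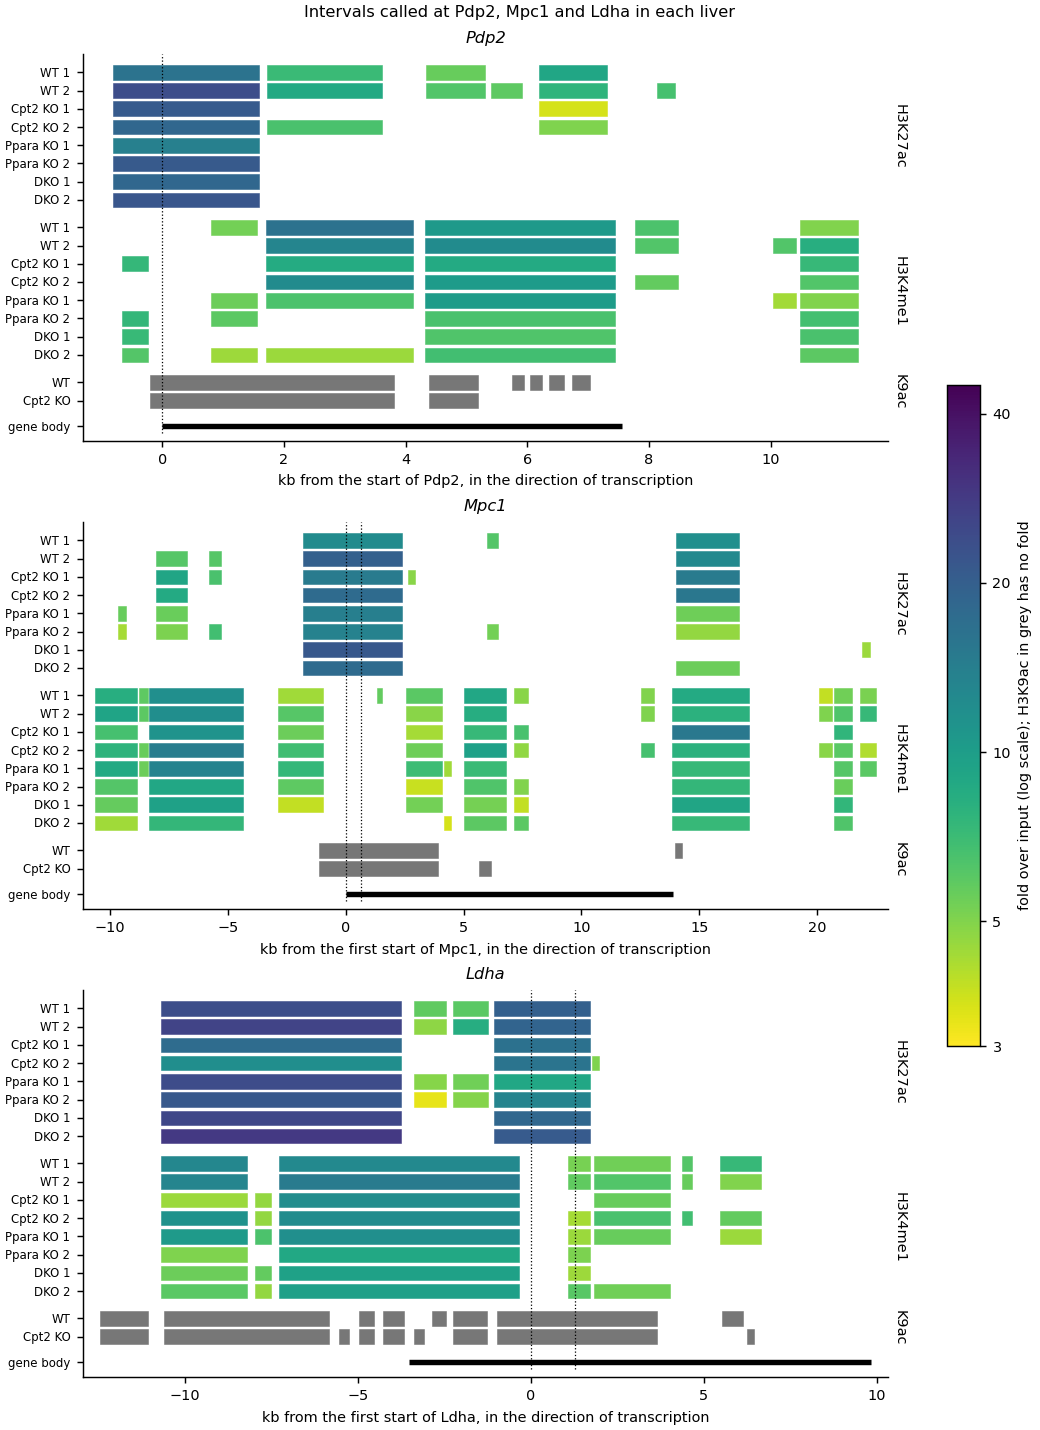
Intervals at Pdp2, Mpc1 and Ldha by distance from the first start in kb, 1 row per library, coloured by fold on a log scale as in the maps of Pdk4 and Pdk1. The block past the end of Mpc1 is pale or absent in the 4 Ppara-null livers, and the 2 pale blocks before the start of Ldha are absent from the 4 Cpt2-null livers.

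Counts over the 8 genes put these results beside all intervals. Only intervals called in all 8 libraries were tested: 19 of 72 in H3K27ac and 26 of 117 in H3K4me1. For Ppara, 1 of 19 H3K27ac intervals passed (5.26%; 7.34% over all 18281 intervals tested), the lower one over the start of Pdk1. The median log2 difference of the 19 was 0.02, where that of all intervals was -0.01. The count was 2 without WT replicate 1, without WT replicate 2 or without DKO replicate 1. The share of 5.26% is near the background.

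For Cpt2, 5 of 19 H3K27ac intervals passed (26.3%; 12.3% over all intervals tested): 1 higher and 3 lower at Pcx and 1 lower at Ldha. The median log2 difference of the 19 was -0.17, where that of all intervals was -0.01. The count depended on single libraries: it was 0 without Ppara KO replicate 1 or without DKO replicate 2, 1 without either Cpt2 KO library, 2 without Ppara KO replicate 2 or without DKO replicate 1, and 3 without WT replicate 1. The smallest peak width was 217 to 223 bases in the Cpt2-null H3K27ac libraries and 198 to 210 in the Cpt2-intact ones. It thus moved with Cpt2. With it as a covariate 0 of 19 passed, and the sign of the difference at 4544445 to 4547331 turned (log2 0.15). The width ranges of the Cpt2 states do not overlap, so that fit cannot tell width from Cpt2 state. No conclusion is drawn from it.

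In H3K4me1, 0 of 26 intervals passed for Ppara (0.128% over all intervals tested, 0.0461% higher and 0.0819% lower), 0 for Cpt2 (0% over all) and 0 for the interaction (0% over all) in limma. At an unadjusted p under 0.05 there were 7, 3 and 0 of 26, against 2721, 1916 and 566 of all 19526 intervals tested. The interaction passed at 0 of 19 H3K27ac intervals (0.00547% over all intervals tested). At an unadjusted p under 0.05 it had 6 of 19, against 2771 of all 18281. Intervals called in all 4 Ppara-intact livers and in none of the Ppara-null livers numbered 4 of 72 in H3K27ac (over all intervals 0.725%) and 1 of 117 in H3K4me1 (over all intervals 0.604%). The reverse pattern, calls in the Ppara-null livers alone, was found at 0 of 72 H3K27ac intervals (over all intervals 0.632%), and calls in the Cpt2-null livers alone at 0 of 117 H3K4me1 intervals (over all intervals 0.141%). The H3K4me1 count of the Ppara-intact livers alone was 8 without Cpt2 KO replicate 1. It was 2 when replicate 2 of WT, replicate 1 of Ppara KO or replicate 2 of DKO was left out. The H3K27ac count of the Cpt2-intact livers alone was 4 without Ppara KO replicate 2.

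**Figure D5:**
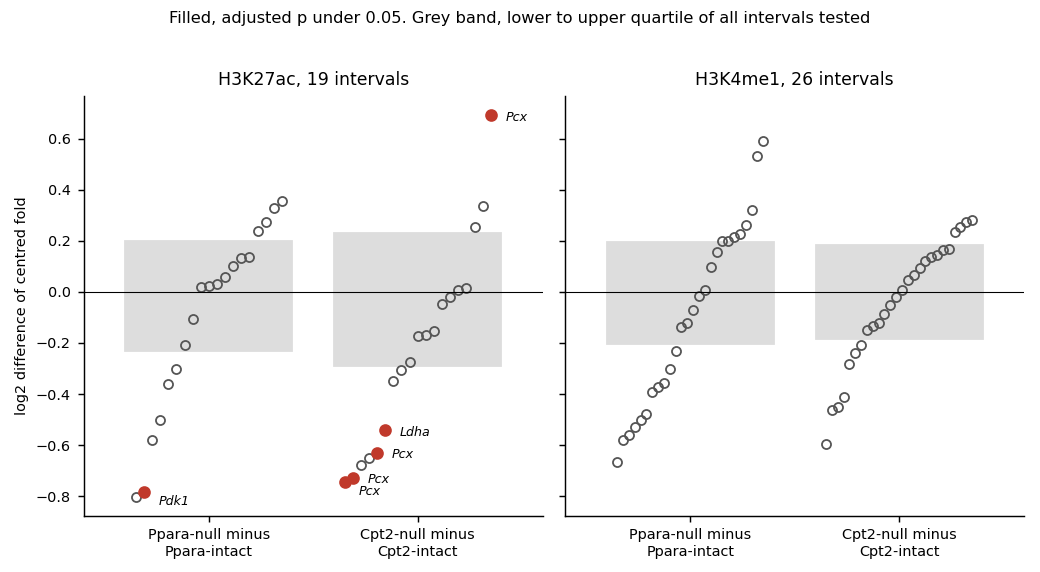
Log2 differences of centred fold (vertical axis) for the 19 H3K27ac and 26 H3K4me1 intervals tested, for loss of Ppara and of Cpt2, with filled points for adjusted p under 0.05 and a grey band from the lower to the upper quartile of all intervals tested. The passing points are 1 at Pdk1 for Ppara and 4 at Pcx and 1 at Ldha for Cpt2, all in H3K27ac.

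H3K9ac had 1 library per genotype and no fold, so its calls are described without a test. At Pdk4, 5 intervals were called in the Cpt2 KO liver and 2 of them in the WT liver; the 3 further ones lay at 2975, -1124 and -5746 bases from the start. Pdk1 had 3 intervals in Cpt2 KO and 1 in WT. Over the 8 genes, 22 of 69 intervals were called in WT alone (31.9%; 20.8% over all intervals) and 10 in Cpt2 KO alone (14.5%; 23.9% over all intervals). The surplus in WT came from Pcx (13) and Pdp2 (4 short intervals side by side).

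A list of 24 other genes of pyruvate metabolism gave 35 tested H3K27ac intervals. For Ppara 2 were higher and 0 lower (over all intervals tested, 3.19% higher and 4.15% lower). The start of Got1, a cytosolic aspartate aminotransferase, had folds of 13.4 and 20.2 (WT), 23.7 and 12.2 (Cpt2 KO), 31.2 and 35.5 (Ppara KO) and 36.1 and 32.6 (DKO) (log2 difference 0.98, SE 0.18, limma adjusted p = 0.00568). All Ppara-null livers were above all Ppara-intact livers there. Slc16a7, a monocarboxylate transporter, had an interval (chromosome 10, 125267965 to 125271962) with folds from 4.45 to 10.5 in Ppara-intact and from 12 to 14.8 in Ppara-null livers (log2 difference 0.83, SE 0.19, limma adjusted p = 0.021).

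For Cpt2, 1 of the 35 was higher and 3 were lower (over all intervals tested, 4.9% higher and 7.38% lower). The start of Pkm, the pyruvate kinase of most tissues outside liver parenchyma, had folds of 16.2 and 10.2 (WT), 24.2 and 22.1 (Cpt2 KO), 16.6 and 13.7 (Ppara KO) and 29.6 and 31.7 (DKO) (log2 difference 0.67, SE 0.19, limma adjusted p = 0.0331). The lower intervals lay by Pck1, the gluconeogenic carboxykinase (-0.74), and in the windows of Ldhd (-0.67) and Pdhx (-0.85), where Znrf1 and Apip were nearer. In H3K4me1, 0 of 44 passed for either gene. Gpt2, a mitochondrial alanine aminotransferase, had 3 H3K4me1 intervals called in the Ppara-null livers alone, with folds from 3.55 to 5.79; these were 3 of the list's 190 H3K4me1 intervals (over all intervals 0.385%). Of the list's other intervals called in 1 state alone, Slc16a7 and Me1 had 2 of 190 in H3K4me1 for the Cpt2-intact livers (over all intervals 0.143%). In H3K27ac, Pdhx had 1 of 110 for the Ppara-intact livers (over all intervals 0.725%), and Gpt and the window of Ldhd had 2 of 110 for the Cpt2-null livers (over all intervals 1.95%).

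Across the 8 H3K27ac libraries, the strongest intervals of 11263 other genes were ranked by Pearson r of centred log2 fold with the start of Pdk4, as a description that shares depth and centring between its points. The highest were Stk3 (0.983), Glmn and Rpap2, which share 1 interval (0.964), Slc22a5 (0.963) and Chchd5 (0.952). Slc22a5, a carnitine transporter, had folds of 7.75 and 15.5 (WT), 19.1 and 14.4 (Cpt2 KO), 5.92 and 9.3 (Ppara KO) and 14 and 12.8 (DKO). As at Pdk4, the first WT liver was low and the Cpt2 KO livers were above the Ppara KO livers. This likeness follows from the ranking itself.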

How the data were processed

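ChIP-seq peaks of 8 H3K27ac and 8 H3K4me1 libraries were used, with intervals of 2 H3K9ac libraries; pooled inputs were not analysed here on their own. Per the submitters' processing notes, BWA and MACS2 2.1.0 were used on mm10. The fold enrichment (a ratio over input) and the −log10 p and q of each peak were deposited by the authors, called per library. Positions in bases were deposited as well and made 1-based. How the consensus was made is not given in the sources used here. In 1 H3K27ac library (Ppara KO, replicate 2) the names hold a build word other than mm10; its Jaccard index with replicate 1 was 0.723, so it was used as mm10.

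Intervals were matched to peaks by at least 1 shared base. Log2 folds, centred on each library's median, were tested with limma 3.58.1 (eBayes with trend, 4 genotype means, 4 residual degrees of freedom) over all intervals called in all 8 libraries of a mark, with Benjamini-Hochberg adjusted p under 0.05. The scripts (Python 3.11.15) were tested on simulated data, with a log2 change of 1 set in the Ppara-null livers at 200 intervals per mark. The change was found at 44% of them in H3K27ac and 28% in H3K4me1, with 3 and 0 false calls. A difference that did not pass is therefore not shown to be absent. In the real fits, 1342 (H3K27ac) and 25 (H3K4me1) intervals passed for Ppara, and Cpt2 and the interaction were not simulated. The shares found may thus differ in the real tests. Groups came from sample titles. Named are intervals over starts, those that passed, those called in 1 state only, and, where said, others. Members and lists were chosen with earlier results of these data known. Peak names give each liver its own animal number. Depth in reads is unknown, so no counting interval was given. Alternatives were other centring, overlap, thresholds, windows and each library left out.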

Additional observations from a re-analysis of the deposited data

Results flagged for a closer look

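Over the start of Ldha (chromosome 7, 46844744 to 46847497), loss of Cpt2 went with opposite H3K27ac differences in the presence and absence of Ppara. Both Cpt2 KO livers (16.3 and 15.8) were below both WT livers (19.7 and 19), and both DKO livers (18.4 and 20.8) were above both Ppara KO livers (9 and 13.3). The interaction was 1.02 on the log2 scale (SE 0.31) and did not pass (limma adjusted p = 0.171), so the difference between the backgrounds was not shown.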

How the results depend on the processing

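Of the H3K27ac counts, the one for Ppara was 1 and became 2 without centring, 2 with the length-weighted mean fold and 8 of 32 when intervals called in at least 4 libraries were tested with each missing call set to the lowest fold of its list (filled in); leaving out 1 library gave 1 to 2. The count for Cpt2 was 5 and became 2 without centring, 10 of 32 filled in and 0 with the smallest peak width as a covariate; leaving out 1 library gave 0 to 6. With the width, the Cpt2 difference of Pcx at 4544445 to 4547331 reversed to 0.15 (limma adjusted p = 0.965, range over its alternatives 0.0206 to 0.965). In H3K4me1 the Ppara count of 0 became 1 of 59 filled in and 0 to 2 without 1 library. Without centring, the median Cpt2 difference of all H3K27ac intervals was 0.25 and that of the interaction 0.12, and 3504 intervals were higher and 432 lower for Cpt2, against 896 and 1349 with centring and 1016 and 1116 after quantile normalization; for Ppara the split was 584 to 758 and 687 to 668 after quantile normalization. With the replicate number as a block, 1 interval passed for Ppara and 6 for Cpt2 in H3K27ac. Deviations of equal numbers correlated at -0.065 to 0.172 in H3K27ac and -0.489 to 0.101 in H3K4me1, so the numbers do not pair the livers. The -0.489 was between Cpt2 KO and Ppara KO, so Cpt2 KO replicate 1 deviated with Ppara KO replicate 2 in H3K4me1. These libraries covered 41.4 and 42.7 Mb, less than their partners, and the fit has no term for this. The following settings were chosen after seeing the data. Among peaks with a −log10 q of at least 10, intervals of the Ppara-intact livers alone numbered 2 in H3K27ac and 0 in H3K4me1, those of the Cpt2-intact livers alone 1 and 1, and those of the Ppara-null livers alone 0 in H3K4me1. With a gene window of 1 kb in place of 10 kb, the last count was 1. Leaving out 1 library gave 4 to 5 and 1 to 8 for Ppara-intact, and 2 to 4 and 2 to 3 for Cpt2-intact livers, in H3K27ac and H3K4me1. The cause of these changes was not tested, and the fit with the smallest peak width cannot tell the width from Cpt2 state. Filling in gives intervals called in 1 state alone a difference by construction, so the filled-in counts are no evidence of one. No share over all intervals stands beside the filled-in counts. The 2 livers per genotype, the unknown depth and the missing calls that keep intervals out of the test limit these counts.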
